A study of Mus musculus with 2 samples.

Results

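Hair follicle stem cell genes were examined in back skin as a set of 9: Cd34, Lgr5, Lhx2, Sox9, Nfatc1, Foxc1, Lrig1, Tbx1 and Nfib. They are genes of the bulge, germ and isthmus of the follicle that are not keratins, chosen by name, and all 9 were found among the 22180 named genes of the array. Total RNA came from male mice of the albino strain BALB/cAJcl aged 7 weeks, with 1 array for FGF18 and 1 array for the saline control. For FGF18, the back was depilated to start hair growth (anagen), 100 µg of FGF18 in saline with 5 µg/µl heparin was given into the peritoneum after 6 days, the whole body received 6 Gy of γ-rays 24 h later, and skin was taken 4 h after that. The labels give the control only as saline. They leave unstated its irradiation, its heparin and the number of mice behind either sample, so an effect of FGF18 cannot be told apart from those conditions. Whole skin was sampled, so fewer cells of a type and less RNA per cell cannot be told apart. Markers of skin were present on both arrays, where the keratin gene Krt14 read 328 on the FGF18 array against 575 on the saline array, and the dermal collagen gene Col1a1 323 on the FGF18 array against 408 on the saline array.

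The bulge is a reservoir of slow-cycling epithelial cells in the outer root sheath, the outermost epithelial layer of the follicle. The hair germ beneath it starts each new growth phase, and the isthmus above it holds cells that serve the upper follicle and sebaceous gland. In mouse skin, FGF18 and BMP6 made in the bulge are known signals that keep these cells at rest. The series title links FGF18 to the resting phase and to radioresistance of follicles, and the comparison asks how skin transcripts differed after it.

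Taken as a set, the stem cell genes differed little between the arrays. Of the 9 genes, 7 were higher and 2 were lower on the FGF18 array, with a median difference of 0.23 (FGF18 minus saline, log2(intensity + 1)). Of all named genes 49.5% were higher and 45.5% lower, the rest were equal, and the median was 0.00. Of the 8 stem cell genes at or above the median level over genes, 6 were higher and 2 lower, and among the 11090 genes at that level 59.4% were higher and 38% lower, and the median was 0.07. With clusters of a gene averaged, no stem cell gene reached 1.5-fold in either direction, and with the brightest cluster of each gene Lgr5 did, at a difference of 0.81. Of the genes at that level 3.64% were higher and 4.63% lower by 1.5-fold or more, and of all named genes 2.61% and 4.15%. With 1 array per group there is no replicate and no significance test, so each value compares these 2 arrays.

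**Figure D1:**
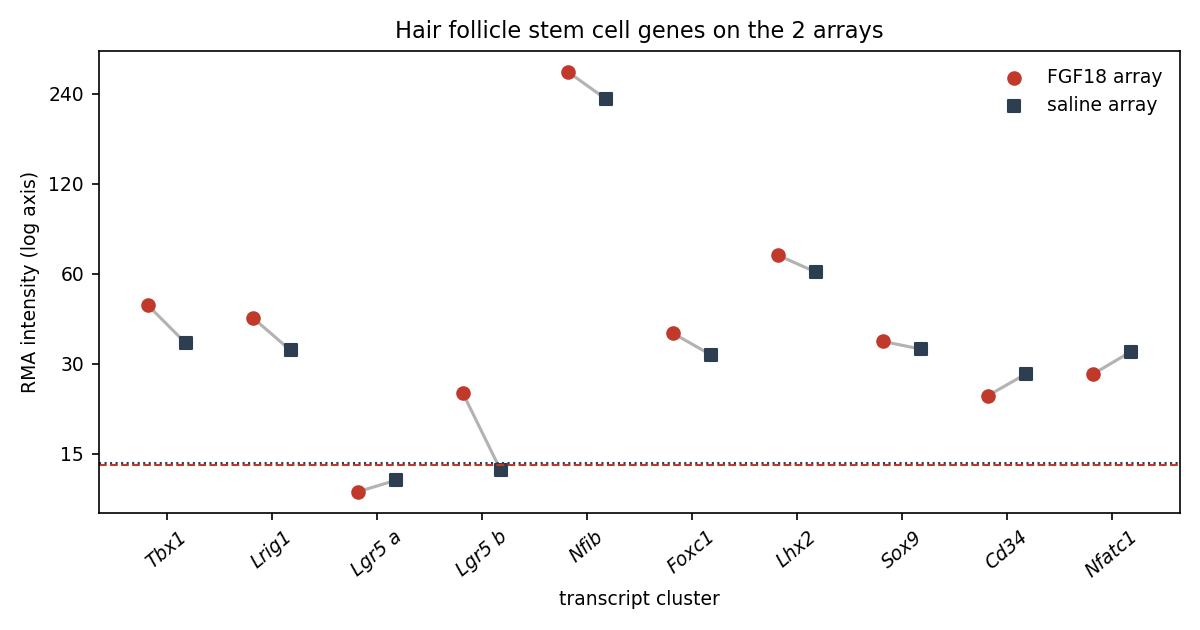
RMA intensity (log axis) of each transcript cluster of the 9 genes, with the FGF18 array as a circle on the left and the saline array as a square on the right of each pair. The dashed and dotted lines are the FGF18 and saline array medians (13.8 and 14.0), which lie close together, and both Lgr5 clusters sit below them on the saline array, while Nfib reads 284 on the FGF18 array and 231 on the saline array.

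The stem cell genes spread over the distribution of all genes without reaching its ends. Genes at or above the median level had a lower quartile of -0.13 and an upper quartile of 0.25, and Sox9, Lhx2 and Foxc1 lay between them. Tbx1, Lrig1, Lgr5 and Nfib lay above the upper quartile, and Cd34 and Nfatc1 below the lower. All 9 lay between the 2.5 and 97.5 percentiles, at -0.81 and 0.65. Some genes had several transcript clusters (the probe groups of the array) at or above the median level. The differences of these clusters scattered around their gene's mean with a standard deviation of 0.24, over 319 genes. Dimmer clusters were left out. By that measure of probe disagreement, which holds no variation between mice, 5 of the 9 differences were smaller than it, Nfatc1 barely so, and the 4 above the upper quartile were larger. Lgr5 is among those 4, but it lies below the median level and its own clusters differed by 0.93, so the measure does not cover it. The split also depended on the trend of difference with level over all genes. With that trend subtracted, Nfatc1 at -0.31 and Cd34 at -0.28 were larger in size than 0.24, and Nfib at 0.19 was smaller.

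**Figure D2:**
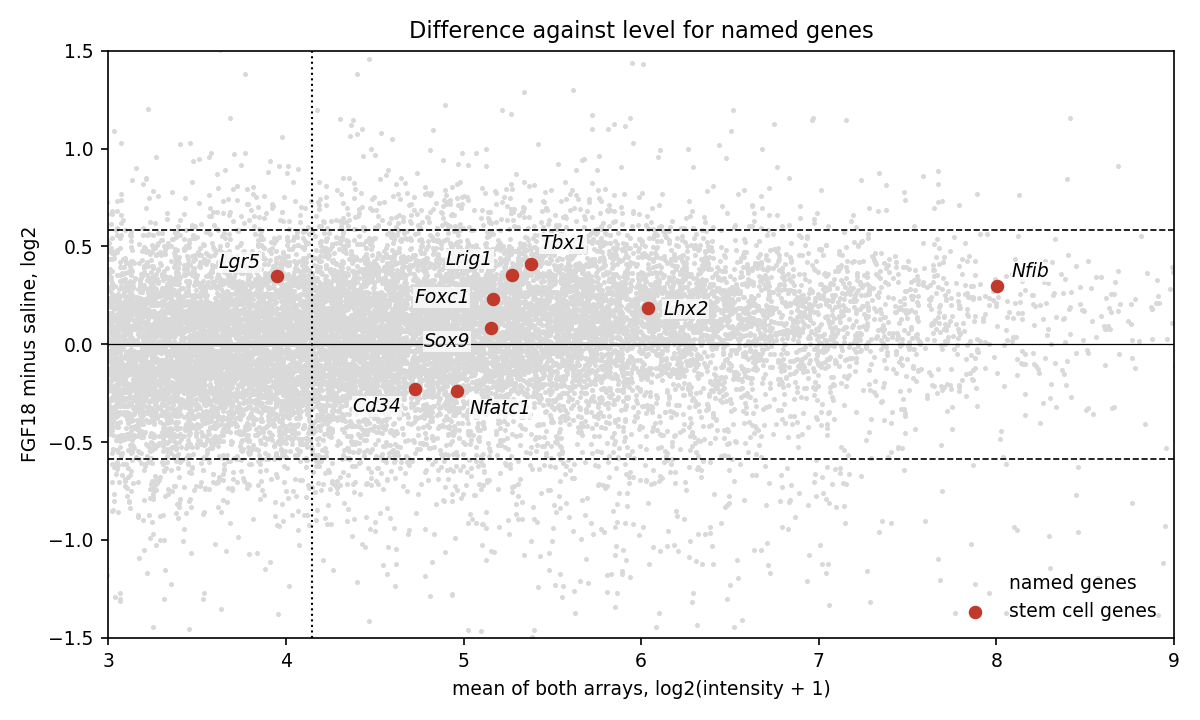
FGF18 minus saline (log2) against the mean of both arrays, log2(intensity + 1), for named genes in grey and the 9 stem cell genes in red. Dashed lines mark 1.5-fold and the dotted line the median level. With clusters of a gene averaged, all 9 genes lie between the dashed lines and 8 lie right of the dotted line, and 4809 named genes outside the plotted ranges are not drawn.

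The promoters of these genes differ in CpG content, a property that their choice did not use. RefSeq windows of 300 bases, from 250 before to 50 after the start (build GRCm38.p6), were used for Cd34, Foxc1, Lhx2, Lrig1 and Tbx1, as 7 windows in all, with both Lhx2 and Tbx1 having 2. The ratio of observed to expected CpG pairs ran from 0.374 in Cd34 to 0.943 in Foxc1, and 6 of the 7 windows were above the median of 0.384 over 32851 windows. The stretches before the start are shown for Cd34 and Foxc1, the ends of that range, which also had differences of opposite sign and like size on the arrays. CpG pairs are in capitals, 6 in Cd34 and 29 in Foxc1.
Cd34, chr1:194938571-194938820, plus strand: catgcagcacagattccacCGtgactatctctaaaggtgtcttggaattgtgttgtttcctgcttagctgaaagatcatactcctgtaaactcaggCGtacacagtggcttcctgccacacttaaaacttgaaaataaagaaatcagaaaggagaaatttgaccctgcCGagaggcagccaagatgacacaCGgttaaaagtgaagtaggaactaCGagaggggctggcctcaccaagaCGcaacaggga
Foxc1, chr13:31806396-31806645, plus strand: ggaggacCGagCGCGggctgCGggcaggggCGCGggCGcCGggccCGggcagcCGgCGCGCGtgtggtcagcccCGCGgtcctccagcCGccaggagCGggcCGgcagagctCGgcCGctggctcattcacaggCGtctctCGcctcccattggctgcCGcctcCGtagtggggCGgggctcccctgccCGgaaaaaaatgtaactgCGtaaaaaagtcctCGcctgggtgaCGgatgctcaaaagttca
The G and C share of the whole window was 50% in Cd34 and 67.3% in Foxc1, and the CpG pairs are scattered in Cd34 and dense in Foxc1. The arrays measured transcripts and not promoters, so these sequences describe the genes and bear on no difference.

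The 6 transcription factors were all above their array's median intensity on both arrays, and 5 of them were higher on the FGF18 array. Tbx1, a T-box factor known to support self-renewal of bulge cells in mice, had an intensity of 47.1 on the FGF18 array against 35.2 on the saline array. That is 1.33-fold higher (difference 0.41), the largest of the 9 when clusters of a gene are averaged. Nfib, a nuclear factor I protein that in mice couples bulge cells to neighbouring melanocyte stem cells, read 284 on the FGF18 array against 231 on the saline array, 1.23-fold higher. Foxc1, a forkhead factor that restrains activation of bulge cells, read 38.0 on the FGF18 array against 32.2 on the saline array, 1.17-fold higher. Lhx2, a LIM homeodomain factor of follicle progenitors, read 69.2 on the FGF18 array against 60.8 on the saline array, 1.14-fold higher. Sox9, an HMG-box factor needed to form the bulge and its root sheath, read 35.6 on the FGF18 array against 33.6 on the saline array, 1.06-fold higher. Once the trend of difference with level over all genes was subtracted, the difference of Sox9 was 0.004 in place of 0.08, that of Lhx2 0.08 in place of 0.18, that of Foxc1 0.15 in place of 0.23 and that of Nfib 0.19 in place of 0.30. Tbx1 then stood at 0.32, still the highest of the 6, and Nfatc1 at -0.31 in place of -0.24.

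Nfatc1 was the transcription factor lower on the FGF18 array. It encodes a calcium- and calcineurin-regulated factor that holds bulge cells at rest in mice, is sustained by BMP signals and represses the kinase gene Cdk4. Its intensity was 27.7 on the FGF18 array against 32.9 on the saline array, which is 1.18-fold lower (difference -0.24). Cdk4 itself read 151 on the FGF18 array against 92.1 on the saline array, 1.63-fold higher, the largest difference of its list. A link between the Nfatc1 and Cdk4 values was not tested. Of the relatives of Nfatc1, Nfatc4 had a difference of 0.70, Nfatc3 one of 0.30 and Nfatc2 one of 0.10, all opposite in sign to Nfatc1, and Nfat5 had one of -0.41.

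Of the 3 genes for surface proteins, Lrig1 was higher, Cd34 lower, and Lgr5 depended on the probes read. Lrig1 encodes a membrane protein of the isthmus that dampens EGF receptor signalling. It read 42.8 on the FGF18 array against 33.2 on the saline array, 1.28-fold higher (difference 0.35). Cd34 encodes a sialomucin that marks the mouse bulge. It read 23.5 on the FGF18 array against 27.7 on the saline array, 1.17-fold lower (difference -0.23). A second cluster that the annotation gives to Cd34 together with another gene was not used. It read 5.62 on the FGF18 array and 5.44 on the saline array, below both array medians, and with it averaged in, the difference of Cd34 was -0.09.

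Lgr5, the R-spondin receptor of the germ and lower bulge, was the one gene of the 9 with 2 clusters, and they did not point the same way. The first cluster read 11.2 on the FGF18 array against 12.2 on the saline array, both below their array medians, with a difference of -0.12. The second read 23.9 on the FGF18 array against 13.2 on the saline array, below the median of 14.0 on the saline array, with a difference of 0.81. The gap of 0.93 between the 2 differences was wider than in 97.2% of the 968 genes with exactly 2 clusters, whose median gap was 0.25. Averaged, Lgr5 had a difference of 0.35, and its fold is not printed, as both clusters read below the array median on the saline array.

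The closest relatives of the 9 genes varied around a smaller median. Among 23 paralogs the median was 0.06, with 13 higher, 9 lower and 1 gene, Nfatc4, at least 1.5-fold higher. The R-spondin receptor Lgr4 had a difference of 0.29, whereas Lgr6, a receptor of isthmus cells, read 29.3 on the FGF18 array and 29.5 on the saline array. Nfib stood beside near-equal relatives, with Nfia at 0.00, Nfic at 0.08 and Nfix at 0.11. Lrig1 did as well, with Lrig2 at 0.06 and Lrig3 at 0.04. Foxc2 was at -0.11 beside Foxc1, and Lhx6 at -0.06 beside Lhx2. Around Sox9, Sox4 stood at 0.33 and Sox8 at -0.04, and around Tbx1, Tbx3 stood at 0.30 and Tbx15 at 0.23. Below the median level over genes, Sox18 was at 0.44, Sox10 at -0.20, Tbx18 at 0.21 and Tbx2 at -0.04.

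Among 21 further stem and progenitor genes of the follicle without keratins, 13 lay higher and 7 lower, the median was 0.13, and 2 were at least 1.5-fold higher. Cdh3, the P-cadherin gene of germ and matrix cells, read 136 on the FGF18 array against 85.5 on the saline array, a difference of 0.66. Gli1, a Hedgehog target found in the germ and upper bulge, read 31.2 on the FGF18 array against 20.0 on the saline array, a difference of 0.62. The matrix gene Postn had a difference of 0.51. At the other end, the homeobox gene Barx2 had a difference of -0.40, Cd200, a surface marker of bulge cells, one of -0.28, and Gas1, a Hedgehog co-receptor gene of the bulge and germ, one of -0.13. Tcf7l1, a repressor of Wnt targets in bulge cells, and Dkk3 were each at 0.00. After subtraction of the trend with level, the median of these 21 genes was 0.03, and that of the 9 stem cell genes was 0.15.

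**Figure D3:**
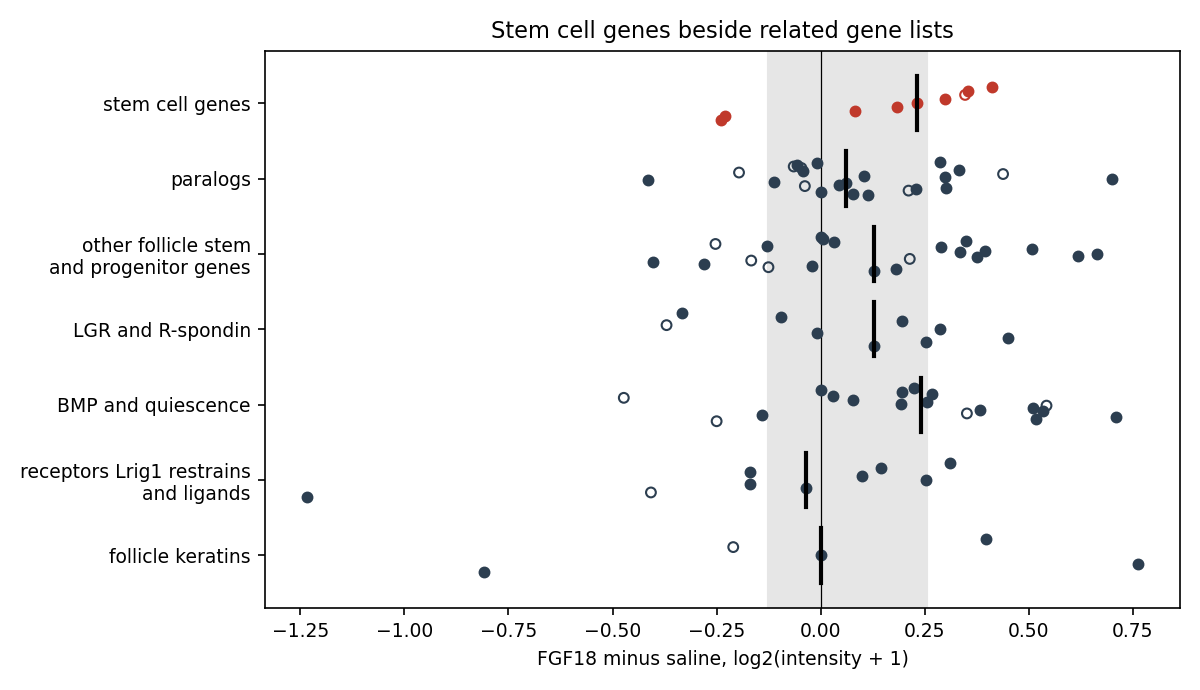
FGF18 minus saline, log2(intensity + 1), for each gene (points) of the 9 stem cell genes in red and of 6 related lists in dark blue. Black bars are medians, open circles are genes below the median level over genes, and the grey band runs from the lower to the upper quartile of genes at or above it (-0.13 to 0.25). The median of the 9 genes, 0.23, lies in the band, as do those of all 6 lists, from -0.04 for receptors that Lrig1 restrains and their ligands to 0.24 for BMP and quiescence.

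R-spondins bind the LGR receptors and remove the ligases Znrf3 and Rnf43, which otherwise clear Wnt receptors. In this list of 9 genes, which shares Lgr4 and Lgr6 with the paralogs and Axin2 with the progenitor genes, 5 were higher and 4 lower, none past 1.5-fold, and the median was 0.13. Znrf3 was at 0.45, Lgr4 at 0.29 and Rnf43 at 0.25. Of the 4 ligand genes 3 were lower, with Rspo3 at 0.20, Rspo2 at -0.10 and Rspo1 at -0.33, and Rspo4, below the array medians, read 9.87 on the FGF18 array and 13.1 on the saline array. Axin2, a Wnt target, was at 0.13.

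The list around BMP signalling and rest holds ligands, receptors and targets together with BMP inhibitors and the cell cycle genes Cdk4 and Ccnd1, so its count gives no direction of signalling or rest. The median of its 18 genes was 0.24, 14 of them higher and 3 lower, and Cdk4 was past 1.5-fold. Among targets of BMP signals, Id3 read 38.0 on the FGF18 array against 25.9 on the saline array (difference 0.53), and Id1 read 40.6 on the FGF18 array against 28.2 on the saline array (difference 0.51). Ccnd1, the cyclin gene of G1, was at 0.52. The ligand gene Bmp6 was at 0.27 and Bmp4 at 0.20, Bmp2 was equal at 18.2, and the BMP inhibitor gene Grem1 was at -0.14. Nog, another BMP inhibitor gene, read 17.6 on the FGF18 array and 13.5 on the saline array, the second below its array median. The receptor gene Bmpr1a was at 0.03. Fgf18 read 25.4 on the FGF18 array and 21.6 on the saline array, which does not check the labels because the protein was injected. Edn2, an endothelin gene that Nfib restrains in mouse bulge cells, read 14.7 on the FGF18 array and 17.7 on the saline array.

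Receptors that Lrig1 restrains, and their ligands, had 4 members higher and 5 lower of 9 measured, with a median of -0.04. Areg, for which no cluster carried Areg as its only symbol, was not analysed here. Egfr read 242 on the FGF18 array against 195 on the saline array, a difference of 0.31. Ret was at 0.25 and Erbb2 at 0.14, while Erbb3 and the ligand gene Tgfa were each at -0.17. Ereg, an epidermal ligand of the EGF receptor, read 29.7 on the FGF18 array against 71.2 on the saline array, 2.35-fold lower, and was the only member past 1.5-fold.

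Keratins of the follicle compartments were not uniform. Krt15, the keratin of bulge cells, read 598 on the FGF18 array against 453 on the saline array (difference 0.40), and Krt17, a keratin of the outer root sheath, 364 on the FGF18 array against 214 on the saline array (difference 0.76). Krt79, a keratin of the infundibulum, was equal to 3 digits on both arrays, at 176. Krt14, the basal keratin, was at -0.81. The 5 keratins listed had a median of 0.00, 2 of them higher and 3 lower.

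Marker lists of keratinised epidermis and of the growing hair had larger median differences, whatever the sign, than the 9 stem cell genes. All 8 suprabasal keratinocyte markers were lower, from Krt1 at -2.96 to Lor at -0.95, and their intensities summed to 3989 on the FGF18 array against 15086 on the saline array. All 6 hair matrix markers were higher, with a median of 0.67, and summed to 436 on the FGF18 array against 270 on the saline array. Hoxc13 had a difference of 1.09 and Foxn1 one of 0.28. Of 7 inner root sheath markers 6 were higher, each by 1.5-fold or more, and the sum was 5608 on the FGF18 array against 2828 on the saline array. Krt28 was at 1.16 and Gata3 at -0.06. Growing follicles also make Sox9, Lhx2 and Lgr5 outside the bulge, in matrix or outer root sheath, and the part of follicle and epidermal content in the values of the 9 genes was not tested. Basal keratinocyte markers had a median of 0.09, with 4 higher and 2 lower of 6, and summed to 834 on the FGF18 array against 1008 on the saline array. The lower sum rests on Krt14, which read 328 on the FGF18 array against 575 on the saline array. Col17a1 was at 0.39.

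Cd34 is also made by endothelium, fibroblasts and mast cells. Most fibroblast markers were lower on the FGF18 array, endothelial markers were mixed, and mast cell markers were evenly split. Endothelial markers had a median of -0.10, with 5 of 9 lower. Over those at or above the median level over genes, the median was -0.26, with 3 of 4 lower. Cdh5 was at -0.66 and Pecam1 at 0.21, and the sum was 145 on the FGF18 array against 157 on the saline array. Of 9 fibroblast markers 7 were lower, with a median of -0.33, and of the 8 at or above that level 6 were lower, with a median of -0.38. Lum was at -0.95 and Dcn at 0.42, and the sum was 1080 on the FGF18 array against 1206 on the saline array. Mast cell markers had 3 members higher, 3 lower and 1 equal, a median of 0.00, and 6 of the 7 lay below the median level, while Kit, the other, was at -0.05. Their sum was 73.9 on the FGF18 array against 71.2 on the saline array. The part of these cells in the Cd34 value was not tested.

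**Figure D4:**
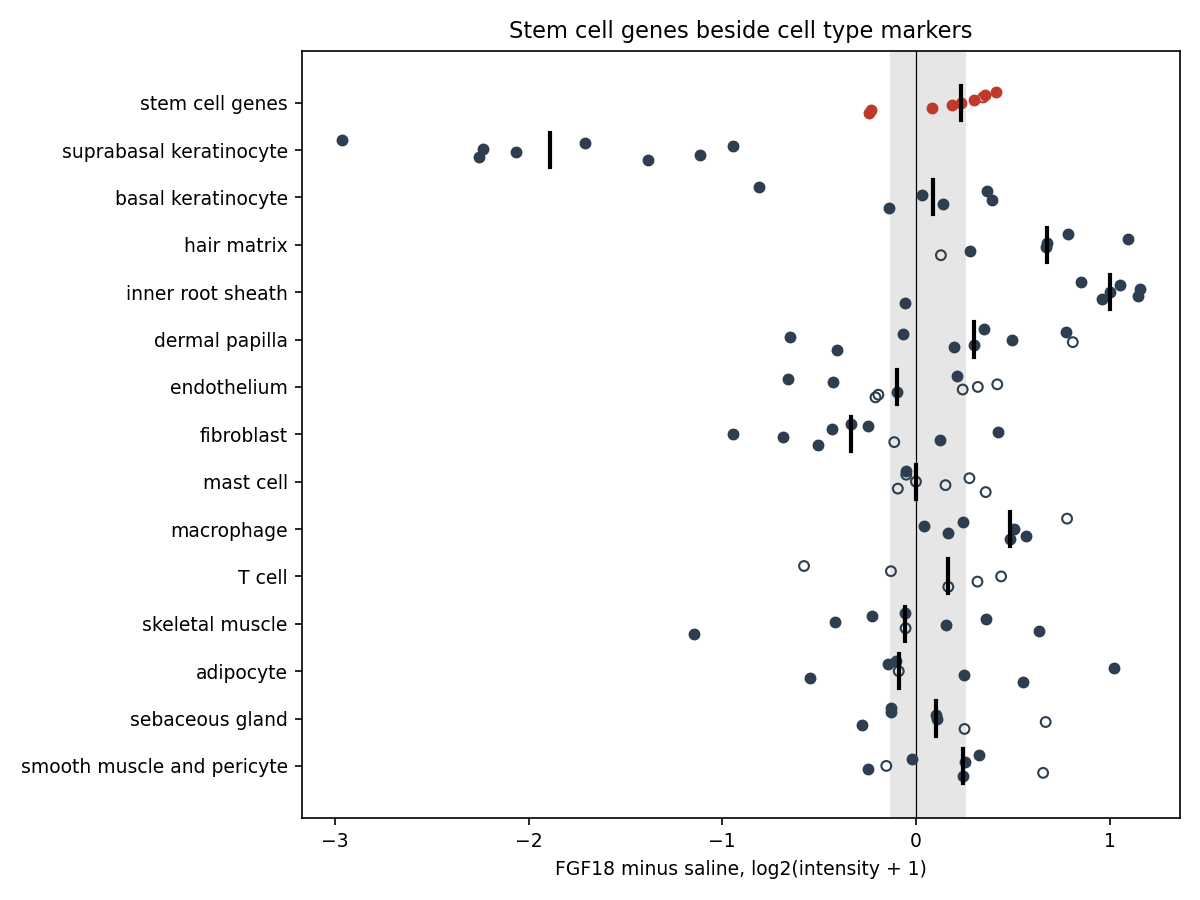
FGF18 minus saline, log2(intensity + 1), for the 9 stem cell genes in red and for 14 marker lists of cell types in dark blue, drawn with the same bars, circles and band as for the related lists. The stem cell genes span -0.24 to 0.41, all suprabasal keratinocyte markers lie left of them, and 6 of 7 inner root sheath markers lie right of them.

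The medians of the remaining marker lists lay between -0.09 and 0.49. Dermal papilla markers, from the mesenchyme at the follicle base, had a median of 0.30 with 6 of 9 higher, from Prdm1 at -0.65 to Wif1 at 0.78 among the brighter ones. All 7 macrophage markers were higher, with a median of 0.49, Lyz2 at 0.57 and Csf1r at 0.04. For smooth muscle and pericytes the median was 0.24 with 4 of 7 higher, Acta2 at 0.33 and Rgs5 at -0.25. Skeletal muscle markers had a median of -0.05 with 3 of 8 higher, Pax7 at 0.64 and Casq1 at -1.14. Adipocyte markers had one of -0.09 with 3 of 7 higher, Plin4 at 1.02 and Retn at -0.55, and the median was 0.07 over the 6 at or above the median level. Sebaceous gland markers had one of 0.10 with 4 of 7 higher, Awat1 at 0.11 and Elovl3 at -0.28, and the median was -0.13 over the 5 at or above the median level. The 5 measured T cell markers all lay below the median level, with a median of 0.17. No marker had an intensity of 0 on either array.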

How the data were processed

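Skin RNA of 2 samples was hybridised to Affymetrix GeneChip Mouse Gene 2.0 ST arrays, 1 per group, and the labels gave the groups. The authors ran Affymetrix Expression Console with RMA, per the submitters' processing notes, in versions that the sources do not state. The deposited values are intensities, linear as judged from their range of 1.44 to 11532 on the FGF18 array and 1.39 to 11488 on the saline array. Arrays have no read depth, and 1 per group limits the precision.

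Of 41345 transcript clusters, those with 1 symbol in the platform annotation (23521) were used, 23328 of them matched to RefSeq (GRCm38.p6) by Entrez identifier, and those of a symbol were averaged as log2(intensity + 1), which gave 22180 genes. The median level over genes was 4.15. A gene below its array's median intensity (13.8 for FGF18, 14.0 for saline) is given without a fold. Folds come from the same log2 scale, which understates those of dim genes. No test was possible.

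Named genes were the 9 stem cell genes, Fgf18, Krt15, Lgr6 and Bmp6, the 3 highest and 3 lowest of each of 6 lists at or above the median level, their paralogs and partners, and the highest and lowest of each of 14 marker lists. Dkk3, Tcf7l1, Id1, Bmp4, Nog and Col1a1 were added after their values were seen. The stem cell genes and lists were chosen with earlier results of these data known. With 2 arrays no likeness of pattern between genes can be measured. Alternatives were a pseudocount of 16 or none, the brightest cluster, clusters with several symbols under their first, median centring, subtraction of a lowess trend (span 0.3, statsmodels 0.14.6), other level filters and a 2-fold threshold. Steps ran in Python 3.11.15 with pandas 2.3.3 and were tested on simulated data.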

Additional observations from a re-analysis of the deposited data

How the results depend on the processing

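Across the 6 alternative scalings and cluster rules, none of the 9 stem cell genes changed sign, and 1 of them, Lgr5, passed 1.5-fold under 1 of these, the brightest cluster, with a difference of 0.81. That cluster's saline value is below the array median. Most of these settings could not change a sign. Median centring subtracted 0.00, and a pseudocount cannot reverse a gene read from 1 cluster. The cluster rules altered only Lgr5 and Cd34, so for the other genes only the trend subtraction could have changed the sign. The median of the 9 genes ran from 0.15 with the trend subtracted to 0.24 without a pseudocount. At or above the 75th percentile of level 3 genes were left, with a median of 0.30, 3 higher and 0 lower. Sox9 was closest to equality, at 0.004 with the trend subtracted. Cd34 was at -0.09 with its second cluster included. The counts of all genes past the fold depended on the setting. At 2-fold 42 were higher and 183 lower, at the 75th percentile 206 and 321, with a pseudocount of 16 119 and 300, and without a filter 580 and 920. With the trend subtracted 267 were higher and 650 lower, so 29.1% of genes past 1.5-fold were on the higher side, against 44.0% as reported and 28.4% with a pseudocount of 16. Of the genes that reach the median level, 49.7% were higher with the trend subtracted, against 59.4% as reported. The subtraction centres the differences at each level, so a near-even split follows from it and is not a finding. No paired analysis was possible because each group has 1 array, and for the same reason no replicate could be left out. Array signal limits Lgr5 most, since neither cluster exceeded the saline median.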
